A study of Mus musculus with 10 samples.

Results

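Expression of the transforming growth factor beta (TGF-beta) pathway was described in CD8+ T cells that had shared a culture with 4T1, a cell line of mouse mammary carcinoma. The 10 genes were chosen by name from the deposited gene table of 57825 genes: the ligands Tgfb1, Tgfb2 and Tgfb3, the receptors Tgfbr1, Tgfbr2 and Tgfbr3, the signal mediator Smad3, the inhibitory Smad7, and the co-repressors Ski and Skil. All 10 were found, each listed once, and all 10 passed the filter on low values. RNA was sequenced from 2 groups of 5 samples, CD8+4T1 without and CD8+4T1+NaAc with 5 mM sodium acetate (NaAc), both labelled day 3. By the methods of the study, the cells came from spleens of female Balb/c mice (mice of 7 to 8 weeks were used in the experiments), and were isolated with a magnetic bead kit. In both groups they were activated on anti-CD3 coated plates with anti-CD28 and IL-2 for 12 h. A 24 h period with NaAc (or none) and a 48 h co-culture with 4T1 followed, so every group carries the exposure to tumor cells. The methods name purified CD8+ T cells as the source of the RNA, and how they were separated from 4T1 cells after co-culture is not given in the sources used here. A group without tumor cells was not analysed here, and the labels do not say whether samples came from separate mice or cultures, so p-values measure only the spread between these samples.

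TGF-beta is secreted as a latent complex, stored on latent TGF-beta binding proteins in the matrix or on cell surface anchors, and released by integrins and proteases. The active ligand binds the type II receptor TGFBR2, which recruits and phosphorylates the type I receptor TGFBR1, and the receptor pair phosphorylates SMAD2 and SMAD3, which enter the nucleus with SMAD4. The pathway limits itself: SMAD7 is induced and blocks the receptors, while SKI and SKIL (SnoN) hold SMAD complexes in a repressed state. In CD8+ T cells TGF-beta is known as a brake on cytotoxic genes and on proliferation, and breast carcinoma cells are a known source of the ligands.

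Promoter sequence was at hand in RefSeq (build GRCm38.p6) for 6 of the 10 genes. The 250 bases before the transcription start are shown for 5 of them: the ligand that fell (Tgfb1), a second ligand of another promoter type (Tgfb2), the 2 signaling receptors (Tgfbr1 and Tgfbr2) and the mediator with the lowest adjusted p among the members (Smad3). For Tgfbr1, which has a second listed start, the upstream start is shown. Each sequence reads 5′ to 3′ on the strand of the gene, at chr7:25686752-25687001 (plus strand) for Tgfb1, chr1:186705990-186706239 (minus) for Tgfb2, chr4:47352972-47353221 (plus) for Tgfbr1, chr9:116175364-116175613 (minus) for Tgfbr2 and chr9:63757995-63758244 (minus) for Smad3. Capitals mark matches, on either strand, to any of 7 motifs: the GC box GGGCGG, the CCAAT box CCAAT, the TATA box TATAAA, the E-box CACGTG, the AP-1 site TGANTCA, the SMAD-binding letters CAGAC and the SMAD palindrome GTCTAGAC. The palindrome and CAGAC share the letters AGAC.
Tgfb1: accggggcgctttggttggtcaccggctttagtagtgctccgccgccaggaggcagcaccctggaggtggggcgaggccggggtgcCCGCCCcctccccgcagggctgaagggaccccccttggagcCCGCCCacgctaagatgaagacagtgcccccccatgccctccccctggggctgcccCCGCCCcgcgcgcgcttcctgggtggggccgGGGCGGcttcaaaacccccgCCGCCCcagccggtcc
Tgfb2: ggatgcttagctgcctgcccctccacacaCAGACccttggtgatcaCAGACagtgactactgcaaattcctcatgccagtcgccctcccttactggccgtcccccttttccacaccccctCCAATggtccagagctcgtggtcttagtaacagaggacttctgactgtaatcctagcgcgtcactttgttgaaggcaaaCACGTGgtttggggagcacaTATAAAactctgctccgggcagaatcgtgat
Tgfbr1: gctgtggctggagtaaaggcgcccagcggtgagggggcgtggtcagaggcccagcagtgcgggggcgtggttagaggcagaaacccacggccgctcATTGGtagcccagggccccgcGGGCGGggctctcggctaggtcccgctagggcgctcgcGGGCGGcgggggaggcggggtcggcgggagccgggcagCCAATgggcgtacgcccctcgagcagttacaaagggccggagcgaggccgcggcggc
Tgfbr2: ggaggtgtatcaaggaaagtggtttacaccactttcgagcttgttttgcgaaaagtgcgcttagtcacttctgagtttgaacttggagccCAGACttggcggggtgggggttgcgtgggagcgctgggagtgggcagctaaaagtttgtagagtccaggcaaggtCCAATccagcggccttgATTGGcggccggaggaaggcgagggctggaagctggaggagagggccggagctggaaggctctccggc
Smad3: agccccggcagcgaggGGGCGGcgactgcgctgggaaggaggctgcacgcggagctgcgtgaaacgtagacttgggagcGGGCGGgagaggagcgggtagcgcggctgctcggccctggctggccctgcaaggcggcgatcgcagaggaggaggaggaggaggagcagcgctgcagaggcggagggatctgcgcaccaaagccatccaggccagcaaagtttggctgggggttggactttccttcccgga
The Tgfb1 window held 5 GC boxes and no other motif, and is 75.2% G and C, against a median of 52.4% over 32817 RefSeq windows of the same length. The Tgfbr1 window (74.8% G and C) held 2 GC boxes and 2 CCAAT boxes, and the Smad3 window (69.2%) held 2 GC boxes. The Tgfbr2 window held 2 CCAAT boxes and 1 CAGAC. Tgfb2 was the only gene of the 6 with a TATA box in the window, beside 1 E-box, 1 CCAAT box and 2 CAGAC. Among all windows, 32.7% held a GC box, 33.8% a CCAAT box, 12.4% a TATA box, 6.02% an E-box, 6.75% an AP-1 site, 42.2% CAGAC and 0.168% the palindrome. Neither the AP-1 letters nor the palindrome occurred in these windows. These matches describe letters, not binding.

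The deposited values are FPKM, which divide the fragments of a gene by its length and by the total of the sample, so levels of different genes can be set side by side. The fragments behind them numbered 16306447 to 17443395 in the CD8+4T1 samples and 16503701 to 18853726 in the CD8+4T1+NaAc samples. The share of them in listed genes separated the groups, with 95.5% to 97.9% without and 89.8% to 92.1% with NaAc, as did the summed FPKM, with 310965 to 335151 without and 282995 to 295928 with NaAc. Replicate 1 of CD8+4T1+NaAc stood apart, with 20233 genes above 0 FPKM against up to 25088 in its group. Groups were compared with limma on log2(FPKM + 0.1) over the 15710 genes that averaged 0.5 FPKM or more, a scale on which changes of low genes are understated. The average ran over both groups, so a gene low in either group could pass through the other. The call needed a p under 0.05 after Benjamini-Hochberg adjustment, and all p-values below are two-sided. Of all genes tested 36.5% were called (17.6% higher and 19% lower in CD8+4T1+NaAc), and the groups did not overlap for 26.4%. A call with an absolute log2 fold change over 1 was met by 6.47% of all genes and by no member. In bulk RNA, fewer cells of a type and less RNA per cell cannot be told apart.

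Among the 10 pathway genes, 7 were called, beside 36.5% of all genes tested. Of these 7, 6 were higher (Tgfb3, Tgfbr1, Tgfbr2, Tgfbr3, Smad3 and Skil) and 1 lower (Tgfb1) in CD8+4T1+NaAc. Tgfb3 averaged 0.493 FPKM without NaAc, under the filter of 0.5 FPKM, and passed it only through the samples with NaAc. The median log2 fold change was 0.25 over the members and -0.02 over all genes tested. The groups did not overlap for 4 of the 10 (Tgfb1, Tgfbr2, Tgfbr3 and Smad3), beside 26.4% of all genes tested. All 3 receptors rose, and the called ligands moved in opposite directions. The brakes Smad7 and Ski were not called.

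**Figure D1:**
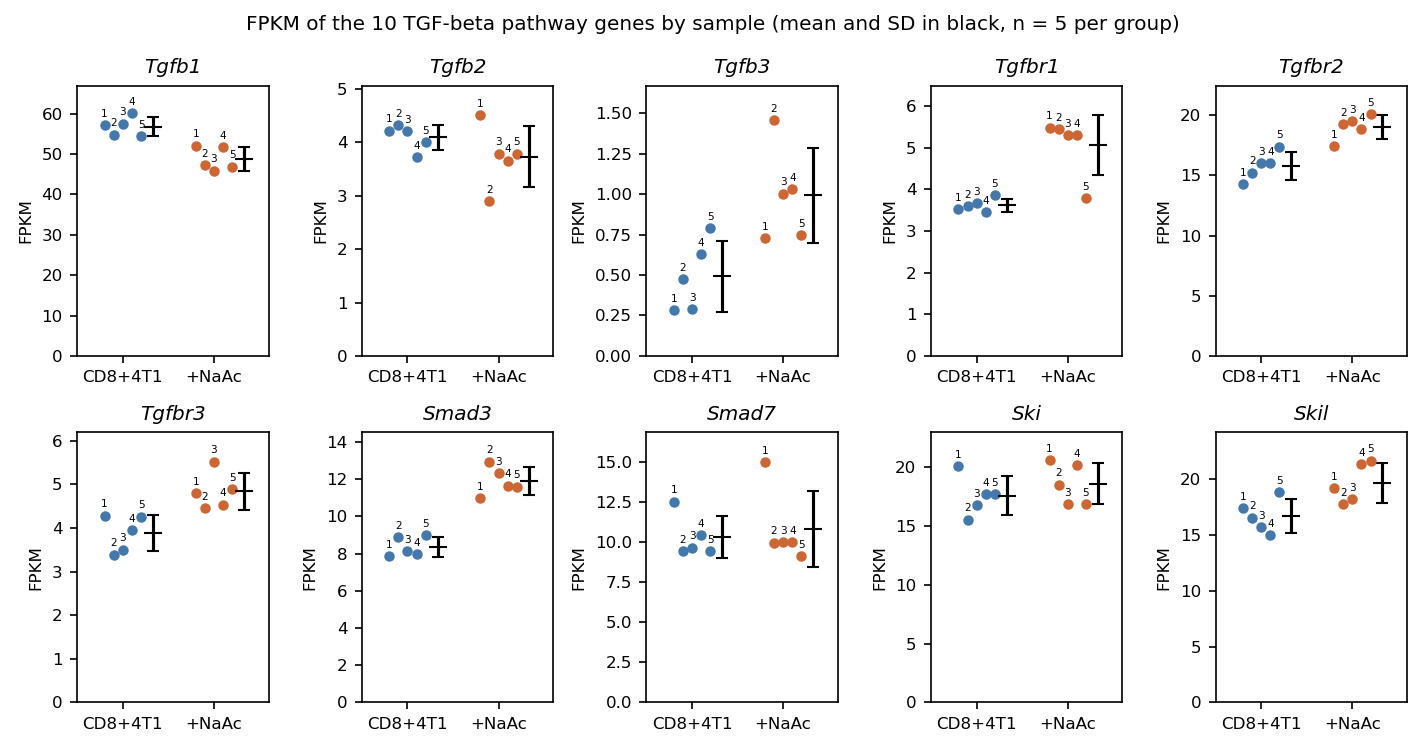
FPKM (vertical axes, from 0) of each of the 10 genes in every sample, with points numbered by replicate and the mean and SD of 5 samples per group in black. Smad3 lies between 7.86 and 8.999 FPKM without NaAc and between 10.96 and 12.9 FPKM with it, whereas Smad7 and Ski overlap between groups.

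Tgfb1, the main TGF-beta isoform of immune cells, was by far the highest ligand. It had 57.1, 54.8, 57.5, 60.0 and 54.4 FPKM in replicates 1 to 5 of CD8+4T1 and 52.1, 47.3, 45.8, 51.7 and 46.9 FPKM in replicates 1 to 5 of CD8+4T1+NaAc. Every CD8+4T1+NaAc sample lay below every CD8+4T1 sample. The mean fell from 56.8 ± 2.30 to 48.7 ± 2.92 FPKM (SD, n = 5 each), a log2 fold change of -0.22 (limma standard error 0.05, adjusted p = 0.00682). The values rest on 3815 to 4988 fragments in each sample. Tgfb1 (ENSMUSG00000002603) is listed on chromosome 7 from 25386427 to 25404502. The call was lost when every sample was rescaled to the same total FPKM (-0.043, limma adjusted p = 0.601) or to T cell markers (-0.018, limma adjusted p = 0.865). Those scalings moved the median of all genes tested to 0.16 and 0.18. Relative to the median of all genes, Tgfb1 stood at -0.20 on the log2 scale under each of the 4 scalings; such a scaling moves all genes of a sample alike, so this is no separate evidence of stability.

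Tgfb2, an isoform best known from epithelial and stromal cells, had 4.10 ± 0.238 FPKM in CD8+4T1 and 3.73 ± 0.572 FPKM in CD8+4T1+NaAc (SD, n = 5 each). Its values ran from 3.72 to 4.32 FPKM without and from 2.90 to 4.51 FPKM with NaAc, so the groups overlapped. The log2 fold change was -0.14, with a 95% interval from -0.37 to 0.09 (limma adjusted p = 0.319), and it turned to 0.030 with the same total FPKM and 0.054 with scaling to T cell markers.

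Tgfb3, the third isoform, was the lowest member in both groups. It had 0.283, 0.474, 0.290, 0.628 and 0.788 FPKM in replicates 1 to 5 of CD8+4T1 and 0.726, 1.46, 1.003, 1.03 and 0.748 FPKM in replicates 1 to 5 of CD8+4T1+NaAc. Replicate 5 of CD8+4T1 lay above 2 of the samples with NaAc. The mean rose from 0.493 ± 0.218 to 0.993 ± 0.296 FPKM (SD, n = 5 each), a log2 fold change of 0.92 (limma standard error 0.30, adjusted p = 0.0332). It rests on only 16 to 93 fragments in each sample. At this low level the fold depends on the pseudocount, and with 1 in place of 0.1 it was 0.42 (adjusted p = 0.0320 in limma). The gene is listed on chromosome 12 from 86103519 to 86125815, inside the span of Ttll5 on the opposite strand. In the GENCODE M21 annotation, of build GRCm38, its 3383 exon bases share none with Ttll5, 257 with Gm48008 and 163 with Gm37804, whose fragments came to 2.39% and 0.482% of those of Tgfb3. The fragments of Ttll5 came to 646% of those of Tgfb3, and their part in the Tgfb3 values was not tested. The strand setting of the counting is not given in the sources used here. The call was lost with the replicate number as a block (adjusted p = 0.0551 in limma) and without a filter (limma adjusted p = 0.0501). It was also lost when 1 sample was omitted in 6 of 10 cases, with limma adjusted p of 0.0673, 0.0581 and 0.0748 without replicate 1, 2 or 3 of CD8+4T1 and of 0.0850, 0.0675 and 0.0708 without replicate 2, 3 or 4 of CD8+4T1+NaAc.

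The type I receptor gene Tgfbr1, which encodes the kinase that phosphorylates the SMADs, had 3.52, 3.60, 3.66, 3.46 and 3.86 FPKM in replicates 1 to 5 of CD8+4T1. In CD8+4T1+NaAc it had 5.48, 5.44, 5.30, 5.29 and 3.79 FPKM. Replicates 1 to 4 with NaAc lay above all CD8+4T1 samples, and replicate 5 lay within their range. The mean rose from 3.62 ± 0.155 to 5.06 ± 0.715 FPKM (SD, n = 5 each), a log2 fold change of 0.46 (limma standard error 0.10, adjusted p = 0.00489), on 372 to 670 fragments. The gene (ENSMUSG00000007613) is listed on chromosome 4 from 47353222 to 47414931.

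The type II receptor gene Tgfbr2, which encodes the ligand-binding kinase, was the highest of the 3 receptors. It had 14.3, 15.2, 16.0, 16.0 and 17.4 FPKM without NaAc and 17.4, 19.2, 19.5, 18.8 and 20.1 FPKM with NaAc. The groups did not overlap, although the highest CD8+4T1 sample (17.38 FPKM, replicate 5) and the lowest CD8+4T1+NaAc sample (17.42 FPKM, replicate 1) nearly met. The mean rose from 15.8 ± 1.15 to 19.0 ± 0.996 FPKM (SD, n = 5 each), a log2 fold change of 0.27 (limma standard error 0.06, adjusted p = 0.00539). Tgfbr2 (ENSMUSG00000032440) is listed on chromosome 9 from 115913361 to 116004428.

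Tgfbr3 encodes betaglycan, a co-receptor without kinase activity that presents ligand to TGFBR2. It had 4.28, 3.39, 3.504, 3.94 and 4.26 FPKM without NaAc and 4.79, 4.45, 5.52, 4.53 and 4.89 FPKM with NaAc, again with no overlap. The log2 fold change was 0.32 (limma standard error 0.09, adjusted p = 0.0180), from 3.87 ± 0.415 to 4.84 ± 0.422 FPKM (SD, n = 5 each). It is listed on chromosome 5 from 107254436 to 107437495. The rises of all 3 receptor genes kept their direction and call with the FPKM as deposited, under each of the 3 other scalings, with the replicate block and with any sample left out, although for Tgfbr3 the adjusted p then reached 0.0477 in limma.

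Smad3, the receptor-activated SMAD that binds DNA, had the lowest adjusted p of the members. It had 7.86, 8.90, 8.14, 7.96 and 8.999 FPKM in replicates 1 to 5 of CD8+4T1 and 10.96, 12.9, 12.3, 11.6 and 11.6 FPKM in CD8+4T1+NaAc. Every sample with NaAc lay above every sample without. The mean rose from 8.37 ± 0.536 to 11.9 ± 0.754 FPKM (SD, n = 5 each), a log2 fold change of 0.50 (limma standard error 0.06, adjusted p = 0.000162), on 727 to 1351 fragments. Without any 1 sample the log2 fold change stayed between 0.47 and 0.53. Smad3 (ENSMUSG00000032402) is listed on chromosome 9 from 63554049 to 63665276.

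Smad7 encodes the inhibitory SMAD that targets the receptors for degradation and is itself a common readout of TGF-beta signaling. It had 12.5, 9.43, 9.67, 10.5 and 9.45 FPKM without NaAc and 14.99, 9.97, 10.01, 9.99 and 9.14 FPKM with NaAc. Replicate 1 was the highest sample of both groups, and the other samples of both groups lay between 9.14 and 10.5 FPKM. The log2 fold change was 0.05, with a 95% interval from -0.24 to 0.35 (limma adjusted p = 0.778). Without replicate 1 of CD8+4T1+NaAc it was -0.068 (limma adjusted p = 0.548).

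Ski and Skil encode related co-repressors that bind SMAD complexes on DNA, and Skil is in addition a known target of the pathway. Ski had 20.05, 15.5, 16.7, 17.7 and 17.7 FPKM in replicates 1 to 5 of CD8+4T1 and 20.6, 18.5, 16.9, 20.1 and 16.8 FPKM in CD8+4T1+NaAc. These ranges overlapped over most of their width. Its log2 fold change was 0.08, with a 95% interval from -0.10 to 0.26 (limma adjusted p = 0.463), and it was called only with the same total FPKM, among the alternatives tried (0.26, limma adjusted p = 0.0472).

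Skil had 17.4, 16.6, 15.7, 15.01 and 18.9 FPKM without NaAc and 19.2, 17.8, 18.2, 21.4 and 21.7 FPKM with NaAc. Replicate 5 of CD8+4T1 lay above 2 samples with NaAc, so the groups overlapped. The mean rose from 16.7 ± 1.502 to 19.6 ± 1.79 FPKM (SD, n = 5 each), a log2 fold change of 0.23 (limma standard error 0.08, adjusted p = 0.0382). This call was near the threshold. It was lost with median-ratio scaling (limma adjusted p = 0.0521), without trend and robust moderation (0.0571) and without a filter (0.0740). It was also lost when 1 sample was omitted in 5 of 10 cases. The limma adjusted p was then 0.0714, 0.0880 and 0.0886 without replicate 2, 3 or 4 of CD8+4T1. It was 0.0917 and 0.0858 without replicate 4 or 5 of CD8+4T1+NaAc.

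**Figure D2:**
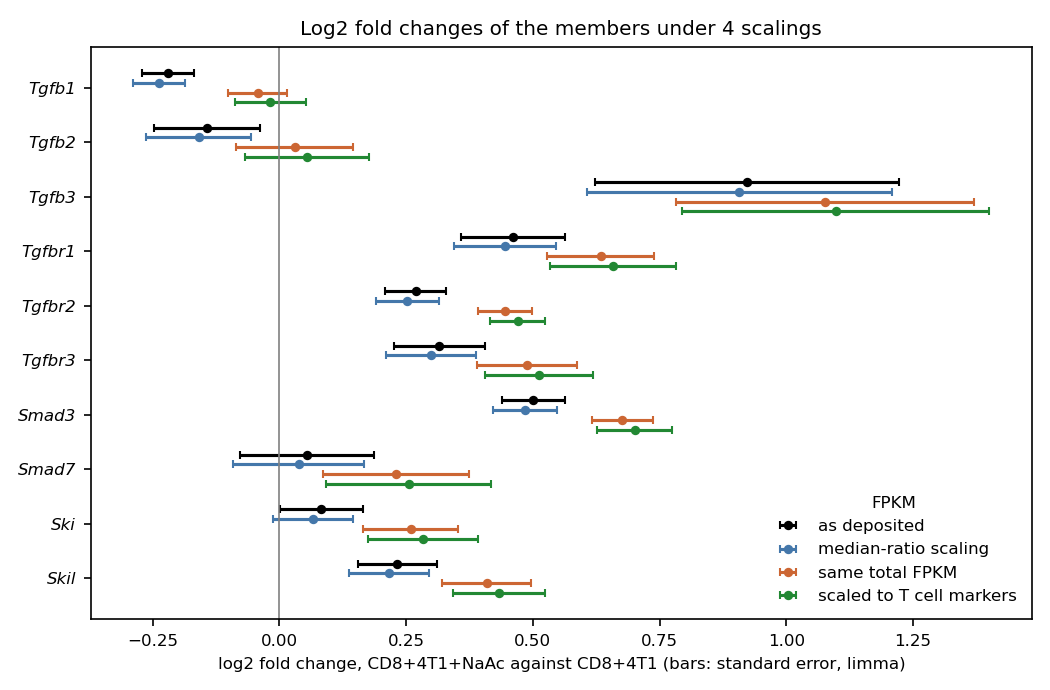
Log2 fold change (horizontal axis) of each member under 4 scalings of the FPKM, with limma standard errors as bars. The 3 receptors, Smad3, Skil and Tgfb3 stay above 0 under each scaling, and Tgfb1 moves from -0.22 as deposited to -0.043 and -0.018 with the same total FPKM and with scaling to T cell markers.

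By mean FPKM the order in CD8+4T1 was Tgfb1, Ski, Skil, Tgfbr2, Smad7, Smad3, Tgfb2, Tgfbr3, Tgfbr1 and Tgfb3. In CD8+4T1+NaAc it was Tgfb1, Skil, Tgfbr2, Ski, Smad3, Smad7, Tgfbr1, Tgfbr3, Tgfb2 and Tgfb3. Within each group the sample values of Ski, Skil and Tgfbr2 overlapped between neighbours, as did those of Tgfbr1, Tgfbr3 and Tgfb2, while those of Smad7 and Smad3 overlapped with NaAc and not without. The balance between members was then compared within each sample, since such a ratio does not depend on the scaling of the sample. Of the 4 ratios compared, the Tgfb1 share of the summed FPKM of the 3 ligands differed after adjustment. It was 92.5% ± 0.573 in CD8+4T1 and 91.2% ± 0.477 in CD8+4T1+NaAc (SD, n = 5 each; exact permutation test, p = 0.00794, the smallest that 5 against 5 samples can give, and 0.0317 adjusted over the 4 ratios). Its samples ran from 91.9% to 93.2% without NaAc and from 90.5% to 91.7% with NaAc. Thus Tgfb1 made up most of the ligand RNA of both groups. A rise of Tgfb3, which rests on 16 to 93 fragments in each sample, lowers this share as a fall of Tgfb1 does. The part of each in the difference was not tested.

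The log2 ratio of Smad7 to Smad3 was 0.67, 0.08, 0.25, 0.39 and 0.07 in replicates 1 to 5 of CD8+4T1 and 0.45, -0.37, -0.30, -0.22 and -0.34 in CD8+4T1+NaAc. Smad7 was thus the higher of the pair in all CD8+4T1 samples and only in replicate 1 of CD8+4T1+NaAc. The difference of -0.45 had p = 0.0476 in the exact permutation test and 0.0952 after adjustment over the 4 ratios. The log2 ratio of Tgfbr1 to Tgfbr2 was -2.12 ± 0.0760 without and -1.92 ± 0.282 with NaAc (SD, n = 5 each; exact permutation test, p = 0.167). Replicate 5 of CD8+4T1+NaAc had the lowest value of all samples (-2.41), and without it the difference was 0.32 instead of 0.20 (exact permutation test, p = 0.0159). The log2 ratio of Skil to Ski was -0.07 ± 0.158 without and 0.08 ± 0.182 with NaAc (SD, n = 5 each; exact permutation test, p = 0.206), with overlapping groups.

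**Figure D3:**
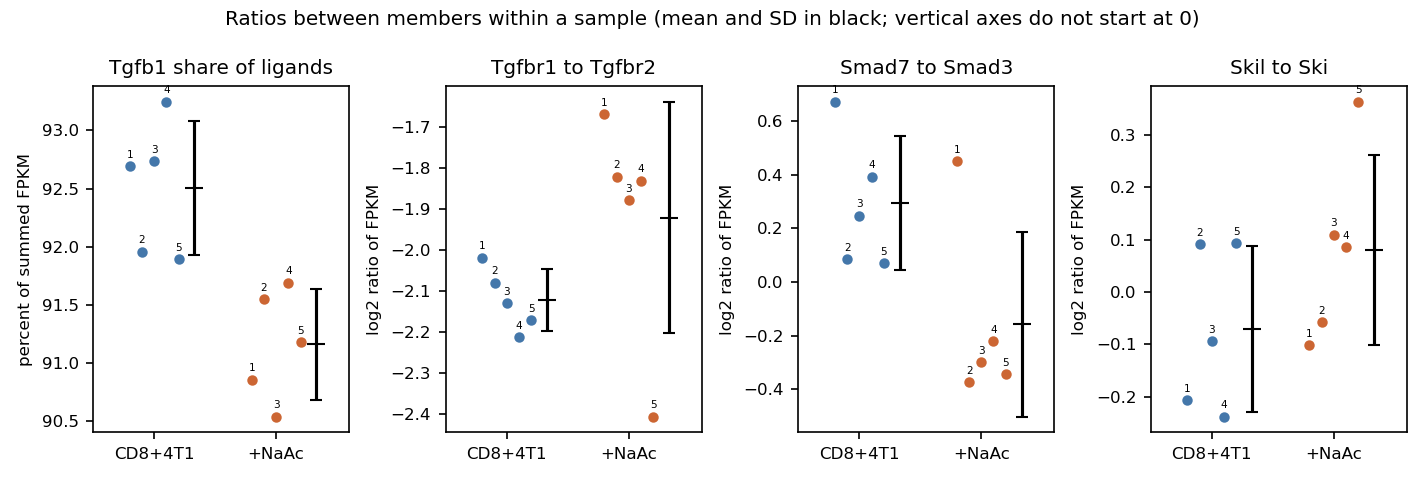
Ratios between members in every sample, as a percent of summed FPKM (left) or a log2 ratio of FPKM, with points numbered by replicate and the mean and SD in black; the vertical axes do not start at 0. The groups are apart for the Tgfb1 share, and replicate 5 (Tgfbr1 to Tgfbr2) and replicate 1 (Smad7 to Smad3) of CD8+4T1+NaAc stand away from the rest of their group.

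The other genes of the pathway were taken from 7 lists of 73 genes, written from textbook knowledge. Of the 55 tested, 24 were called higher and 6 lower, with a median log2 fold change of 0.27, beside 17.6% higher, 19% lower and a median of -0.02 among all genes tested. The proteins that store or release latent TGF-beta moved most: 11 of the 12 tested were called, all 11 higher, beside the 17.6% higher of all genes, with a median of 1.16. Itgb5, the integrin subunit that pairs with alpha V, rose from 0.794 ± 0.188 to 5.62 ± 1.68 FPKM (log2 fold change 2.65), Ltbp1 from 0.444 ± 0.112 to 2.94 ± 0.764 FPKM (2.47), Ltbp4 from 0.920 ± 0.233 to 5.21 ± 1.41 FPKM (2.37) and Ltbp2 from 1.02 ± 0.208 to 4.82 ± 1.25 FPKM (2.12; SD, n = 5 each, limma adjusted p of at most 3.26e-05 for these 4). LTBP1 and LTBP4 tether the latent ligand complex to the matrix, whereas LTBP2 is a matrix protein of the same family that does not bind it. Ltbp1, at 0.444 FPKM on average without NaAc, passed the filter only through the samples with NaAc. The alpha V gene Itgav, the highest of the list on average, rose by less, from 25.5 ± 2.18 to 32.1 ± 0.823 FPKM (log2 fold change 0.34, limma adjusted p = 0.00148). Of the 2 latent ligand anchors of blood cells, chosen after their values were seen, Nrros rose from 11.1 ± 1.08 to 16.1 ± 1.18 FPKM (0.53) and Lrrc32 from 1.48 ± 0.148 to 2.18 ± 0.254 FPKM (0.53), with limma adjusted p of 0.000353 and 0.00390. Furin, the protease that cleaves the ligand precursors and also chosen after its values were seen, had a log2 fold change of -0.07 (limma adjusted p = 0.395).

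Of 6 other receptors tested, 4 were called (36.5% of all genes were), all higher: Bmpr1a (log2 fold change 0.62), Eng (0.49), Acvr1 (0.43) and Bmpr2 (0.42), with limma adjusted p of at most 0.0135. Eng encodes endoglin, a co-receptor, and had 24.6 ± 2.83 FPKM without and 34.5 ± 2.90 FPKM with NaAc (SD, n = 5 each); Bmpr1a, Acvr1 and Bmpr2 encode receptors for bone morphogenetic proteins. Of the other SMADs, Smad1, Smad2, Smad4 and Smad5 were tested and not called, and Smad9 lay below the filter. Smad5, a mediator of BMP signals chosen after its values were seen, was lower in every CD8+4T1+NaAc sample than in every CD8+4T1 sample (log2 fold change -0.13, limma adjusted p = 0.0668). With median-ratio scaling, sample weights or no trend and robust moderation, 1 gene of this list was called lower. The same count was lower without replicate 1 of CD8+4T1+NaAc. Smad4, the shared partner, had 18.6 ± 1.63 and 18.3 ± 0.785 FPKM (SD, n = 5 each; log2 fold change -0.02, limma adjusted p = 0.855). Of the 6 SMADs and partners tested only Zfyve9 (SARA, which brings SMAD2 and SMAD3 to the receptor) was called, beside 36.5% of all genes, with a rise of 0.77 from 0.785 ± 0.122 to 1.42 ± 0.287 FPKM.

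Of 13 regulators of turnover tested, 1 was called higher and 3 lower, a share near the 36.5% of all genes. Fkbp1a (FKBP12), which binds TGFBR1 and keeps it inactive, fell from 111.7 ± 9.09 to 75.4 ± 2.56 FPKM (log2 fold change -0.56, limma adjusted p = 7.20e-05). The deubiquitinase gene Usp15 (-0.29) and the phosphatase gene Ppm1a (-0.26) fell, and the ubiquitin ligase gene Smurf1 rose (0.28), with limma adjusted p of at most 0.00643. The split of this list turned to 3 higher and 1 lower both with the same total FPKM and with scaling to T cell markers. These scalings also moved the split over all genes, from 2764 higher and 2978 lower. It became 4918 and 1386 with the same total FPKM and 5046 and 1119 with scaling to T cell markers. Among 8 genes tested that respond to TGF-beta in many cell types, 4 were called higher and 2 lower, beside 36.5% called among all genes. Fn1 (3.70), Id1 (3.02), Id3 (1.33) and Snai1 (0.90) rose, whereas the cell cycle inhibitor gene Cdkn1a fell from 240.6 ± 4.18 to 158.5 ± 19.2 FPKM (-0.61), with limma adjusted p of at most 0.00413. Id1 and Id3 are targets above all of BMP signaling.

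Of 8 genes tested that TGF-beta is known to repress in T cells, 2 were called higher, Gzma (1.42) and the trafficking factor Klf2 (1.16), and 1 lower, Tbx21 (-0.58), again a share near the 36.5% of all genes. Gzmb, the highest of the list, had 2232 ± 149 and 2285 ± 170 FPKM (SD, n = 5 each; log2 fold change 0.03, limma adjusted p = 0.755). With the same total FPKM or with scaling to T cell markers, 6 of this list were called higher and 1 lower. Among all genes, 4918 of 15756 were called higher and 1386 lower with the same total FPKM. With scaling to T cell markers, 5046 of 15762 were called higher and 1119 lower. Itgae (CD103), which TGF-beta is known to raise in T cells, had 1.25 ± 0.143 FPKM without and 1.54 ± 0.266 FPKM with NaAc (SD, n = 5 each), a log2 fold change of 0.27 (adjusted p = 0.165 in limma). It was called higher with the same total FPKM and with scaling to T cell markers.

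**Figure D4:**
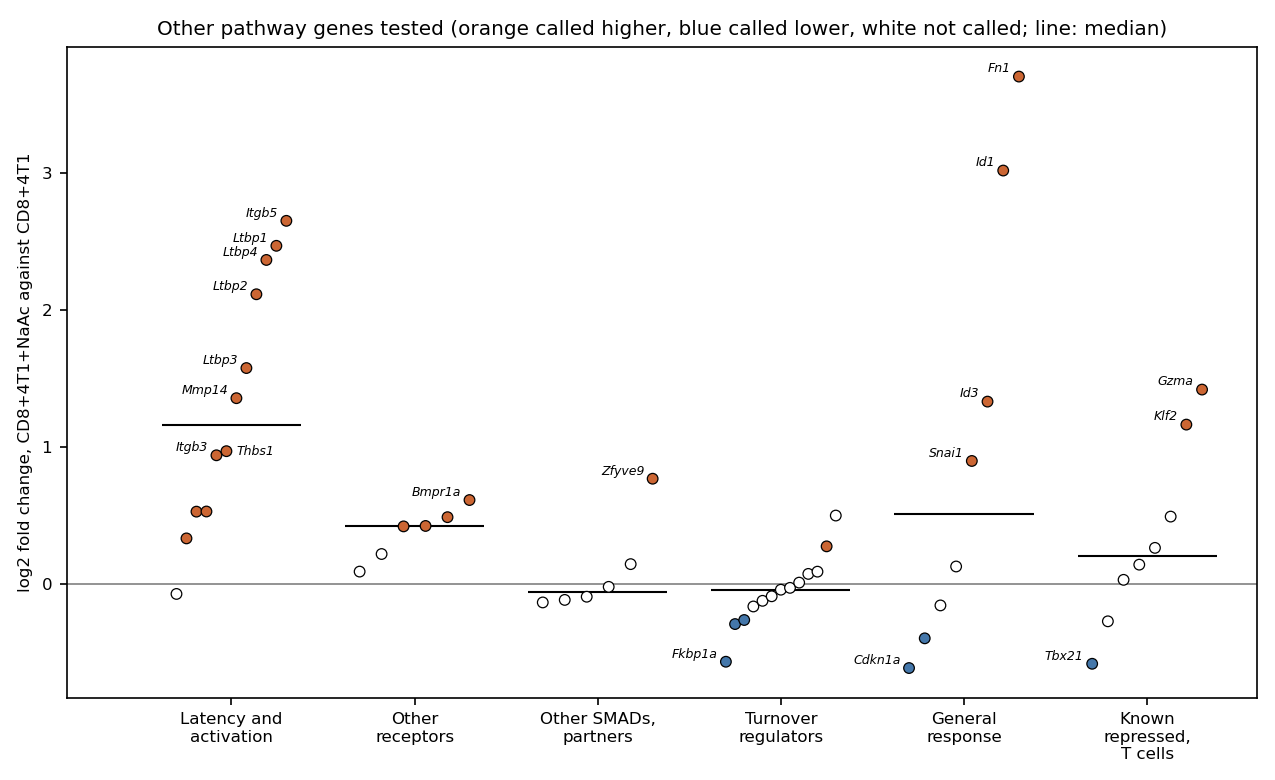
Log2 fold change (vertical axis) of the tested genes of 6 other pathway lists, 1 point per gene, filled where called and with the median of each list as a line; called genes past 0.55 in size are named. The latency and activation list has the highest median, 1.16, and the other SMADs lie near 0 except Zfyve9.

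Genes of other cell types moved with the same comparison. Of 15 epithelial and 4T1 marker genes 9 were tested and 7 called, all 7 higher, beside 17.6% higher among all genes tested. Krt7 (0.143 FPKM on average without and 1.79 FPKM with NaAc), Cldn3 (0.380 and 2.66) and Sox9 (0.337 and 2.53) passed the filter only through the samples with NaAc. Their calls are therefore not independent of the filter. None of the 15 was at 0 in every sample. The 2 tested markers not called were Epcam (0.519 FPKM on average without and 0.699 FPKM with NaAc, limma adjusted p = 0.305) and Cldn7 (0.649 and 0.637 FPKM, limma adjusted p = 0.994). The summed level of the 15 was 12.4, 14.9, 12.9, 23.7 and 24.1 FPKM in replicates 1 to 5 of CD8+4T1 and 96.6, 230.6, 137.9, 165.8 and 87.6 FPKM in CD8+4T1+NaAc. With NaAc the highest of the 15 were Lcn2 (40.2 FPKM on average), Krt8 (34.2), Wfdc2 (33.4) and Krt18 (26.4). The samples of CD8+4T1 had the same order for Tgfb3 as for this sum, and in CD8+4T1+NaAc only replicates 1 and 5, the 2 lowest for both, changed places. Tgfbr1 was lowest in replicate 5 of CD8+4T1+NaAc, the lowest for this sum too, but highest in replicate 1, the second lowest for it, and lay between 5.29 and 5.48 FPKM in replicates 1 to 4 over sums of 96.6 to 230.6 FPKM. Fn1, Id1, Itgb5, Ltbp1, Ltbp2 and Ltbp4 were, like this sum, highest in replicate 2 and lowest in replicate 5 of CD8+4T1+NaAc. The other called members, the latency list and the response genes move with the same contrast, and the part of 4T1 RNA in any of these changes was not tested. Of 12 T cell markers, all tested, 7 were called lower and 1 higher, beside 19% lower and 17.6% higher among all genes tested. Cd3d, Cd3e, Cd3g, Lck, Lat, Cd2 and Cd5 were lower, and Zap70 was higher (log2 fold change 0.27). Cd8a (-0.04), Cd8b1 (0.17), Cd247 (-0.02) and Thy1 (-0.10) were not called. The median log2 fold change of the 12 markers was -0.28. Their summed level was 1016 to 1137 FPKM without and 906.7 to 1017 FPKM with NaAc.

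Markers of other cells are to be read beside the 36.5% called among all genes. Of the tested mesenchymal markers 1 of 3 was called higher (Pdgfra), with Col3a1 and Postn at 0 FPKM in every sample. Pdgfra averaged 0.149 FPKM without and 1.16 FPKM with NaAc, so it passed the filter only through the samples with NaAc. Of the myeloid markers 1 of 4 was called higher (Lyz2), of the CD4 and regulatory T cell markers 1 of 3 higher (Cd4), and of the NK cell markers 1 higher (Eomes) and 1 lower (Nkg7) of 2, both of which CD8+ T cells express too. Neither the 2 tested B cell nor the 3 tested platelet markers were called in limma, and none of these 5 had an unadjusted p under 0.05.

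**Figure D5:**
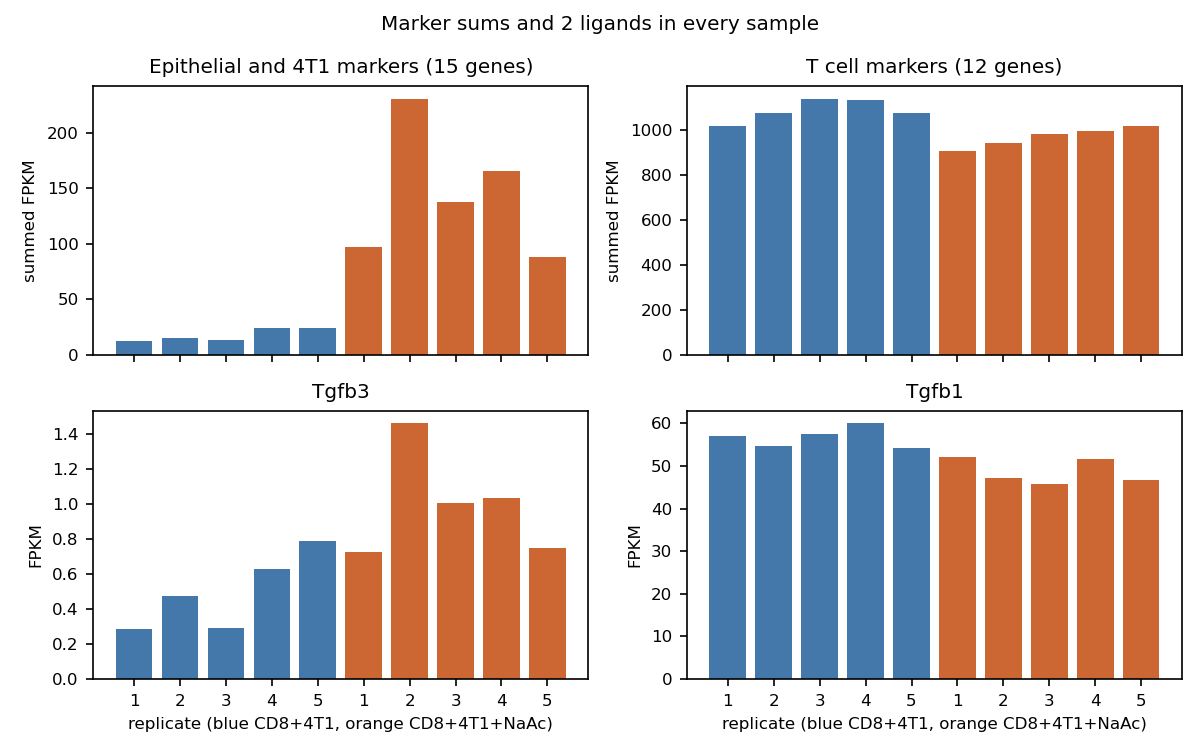
Summed FPKM of 15 epithelial and 4T1 markers and of 12 T cell markers, and FPKM of Tgfb3 and Tgfb1 (vertical axes, from 0), in each sample; blue bars are CD8+4T1 and orange bars CD8+4T1+NaAc, replicates 1 to 5. The epithelial sum is at most 24.1 without and at least 87.6 FPKM with NaAc, and its highest sample is also that of Tgfb3.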

How the data were processed

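RNA of 10 samples of CD8+ T cells was sequenced. The authors deposited FPKM per gene and sample, and gene length as an other, unnormalized column. The submitters' processing notes name fastp, HISAT2 2.0.5, StringTie 1.3.3b and featureCounts 1.5.0-p3; build, annotation and strand setting are not given in the sources used here. Listed positions differ from GRCm38 (1467 of 52073 shared genes have the start and end of GENCODE M21) and are given as deposited; promoter positions are GRCm38.p6. FPKM times length gave whole fragments for 100% of values (within 0.1). Since FPKM are not counts, limma replaced the DESeq2 model of the study.

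Genes averaging 0.5 FPKM or more were fitted with limma 3.58.1 (R 4.3.3) on log2(FPKM + 0.1), with trend and robust moderation, over 15710 genes. Ratios were compared by exact permutation (scipy 1.17.1). On simulated data of this comparison (15734 genes), 79.6% of genes changed by 1 and 99.0% of those changed by 2 on the log2 scale were called, against 0.0515% of unchanged genes. Only 98 and 97 genes were changed by 1 and 2, the noise setting was the same for all genes, and no sample deviated. These rates therefore need not hold for the deposited data. Members and lists were chosen with earlier results of these data known. Named from each pathway list were up to 4 called genes with the largest change and the gene with the highest mean; others are said to be chosen after their values were seen, and some named genes are not reported here. Alternatives were other pseudocounts (1, 0.01), no filter or at least 5 FPKM, 3 other scalings, no trend or robust moderation, sample weights, the replicate block, voom on recovered fragments, and samples left out. Marker lists were epithelial and 4T1, T cell, mesenchymal, B cell, myeloid, NK, CD4 and regulatory T, and platelet.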

Additional observations from a re-analysis of the deposited data

Results flagged for a closer look

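The highest or lowest of 5 samples is listed if the distance to its neighbour was over 0.71 of the whole span of the 5. This held in 8 of 96 groups of values, against about 4.8 (1 in 20) by chance, and 5 of the 8 were replicate 1 of CD8+4T1+NaAc. Among the members, Tgfbr1 in replicate 5 of CD8+4T1+NaAc was the lowest of its group (3.79 FPKM, next 5.29), which also set the log2 ratio of Tgfbr1 to Tgfbr2 apart (-2.41, next -1.88). Smad7 in replicate 1 of CD8+4T1+NaAc was the highest (14.99 FPKM, next 10.01), and with it the log2 ratio of Smad7 to Smad3 (0.45, next -0.22). The same sample had the highest Cdkn1a (192.1 FPKM, next 153.5), the lowest summed B cell markers (4.55 FPKM, next 5.94) and the highest summed CD4 and regulatory T cell markers (24.4 FPKM, next 19.3). Replicate 1 of CD8+4T1 had the lowest Gzmb (1967 FPKM, next 2274).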

How the results depend on the processing

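Of 443 values recomputed under alternatives, 387 kept their direction and side of the threshold or stayed within 1.5 times. Tgfbr1, Tgfbr2, Tgfbr3 and Smad3 kept their calls wherever they were fitted; with a mean of at least 5 FPKM Tgfb2, Tgfb3, Tgfbr1 and Tgfbr3 had no value. Tgfb1 was not called with the same total FPKM (-0.043) or with scaling to T cell markers (-0.018), where Tgfb2 turned to 0.030 and 0.054 and Ski was called at 0.26 with the same total. Tgfb3 (0.92) lost its call without a filter and with the replicate block, and ranged from 0.79 to 1.09 with 1 sample left out. With a pseudocount of 1 it was called at 0.42. Skil lost its call without a filter and without trend and robust moderation (0.23 in both) and with median-ratio scaling (0.22), and ranged from 0.20 to 0.28 with 1 sample left out. Smad7, never called, ranged from -0.068 (without replicate 1 of CD8+4T1+NaAc) to 0.13 with 1 sample left out, and was 0.23 with the same total and 0.25 with scaling to T cell markers. All genes called numbered 5742, and 3733 with a mean of at least 5 FPKM. The split of calls was 2764 higher and 2978 lower, against 4918 and 1386 with the same total and 5046 and 1119 with scaling to T cell markers. Counts of called list genes that moved by over 1.5 times were, with a mean of at least 5 FPKM (fewer genes tested), 5 for latency, 1 for receptors and 0 for the other SMADs; without a filter, 10 for the general response; with the same total, 2 for the SMADs, 7 for genes repressed in T cells and 2 for those raised, and the same counts with scaling to T cell markers; with sample weights 3, 5 and 2; with median-ratio scaling or without trend and robust moderation, 2 for the SMADs; and with the replicate block, 5 for the repressed genes. With 1 sample left out the SMAD list had 1 to 3 calls (2 without replicate 1 of CD8+4T1, 3 without replicate 1 of CD8+4T1+NaAc, 2 without both) and the repressed list 3 to 5 (5 without replicate 5 of CD8+4T1 or replicate 1 of CD8+4T1+NaAc). Apart from the scalings and the filters, the cause of these shifts was not tested.

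With the replicate number as a block, the Tgfb1 share (-1.34 percentage points) and the log2 ratio of Smad7 to Smad3 (-0.45) had an exact permutation p of 0.0625, the smallest that 5 pairs allow, and 5399 genes were called. Same-numbered samples deviated together with r from -0.03 to 0.07 across genes. Replicates 1 and 4 of CD8+4T1 correlated best with their own number, and the others did not. A correlation across all genes cannot decide whether the number pairs samples. For Smad7 the limma standard error was 0.13 without and 0.06 with the block. With 1 sample left out the difference in the log2 ratio of Smad7 to Smad3 lay between -0.60 and -0.36, and that of Tgfbr1 to Tgfbr2 between 0.14 and 0.32.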

Other observations

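Of the genes in the 7 pathway lists, 18 lay below the filter and were not tested, and for 6 of them the groups did not overlap, each higher in CD8+4T1+NaAc. These are named here after their values were seen. Smad6, the inhibitory SMAD of BMP signaling, had 0.0937 ± 0.0671 FPKM in CD8+4T1 and 0.701 ± 0.303 FPKM in CD8+4T1+NaAc (SD, n = 5 each). Acvr2b, an activin receptor gene, had 0.306 ± 0.0778 and 0.648 ± 0.103 FPKM. The matrix genes Col1a1 and Tgfbi had 0.196 ± 0.0561 and 0.516 ± 0.0893 FPKM, and 0.00321 ± 0.00719 and 0.148 ± 0.0615 FPKM. Ccn2, a matricellular gene, had 0.0254 ± 0.0277 and 0.213 ± 0.0710 FPKM, and Acta2, the smooth muscle actin gene, 0.0981 ± 0.0833 and 0.334 ± 0.0423 FPKM. The groups did not overlap for 26.4% of the genes tested, and the summed epithelial and 4T1 markers, at most 24.1 FPKM without and at least 87.6 FPKM with NaAc, moved with the same contrast; their part in these values was not tested. The integrin subunit genes Itgb6 and Itgb8, whose integrins release active TGF-beta, were at or below 0.0464 FPKM on average in both groups. Foxp3, which TGF-beta induces in CD4+ T cells, had 0.221 ± 0.0663 and 0.179 ± 0.102 FPKM.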
